A study of Mus musculus with 9 samples.

Results

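The miRNAs of the miR-297, miR-466, miR-467 and miR-669 families are rodent miRNAs, and most of their hairpins lie inside a single mouse gene, Sfmbt2. They were followed here across brown (BAT), subcutaneous (SAT) and visceral (VAT) adipose tissue. They were chosen by name, as every miRNA of the small RNA sequencing table that is named miR-297, miR-466, miR-467 or miR-669. Any letter and either arm of the hairpin counted, and earlier results of these data were known when the list was made. The choice gave 80 of 1251 miRNAs, of which 6 were miR-297, 31 were miR-466, 13 were miR-467 and 30 were miR-669. Their names assign 33 of them to the 5p arm and 35 to the 3p arm, and 12 carry no arm. In 75 of the 80, every library stood at the lowest value of the table. The other 5 were seen at low levels in 1 to 3 of the 9 libraries, and none of these was a SAT library.

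The libraries came from male C57BL/6J mice. They entered the study at 5 to 6 weeks of age and ate a high fat diet (HFD), with 45% of energy from fat, for 11 weeks. After a fast of 4 hours, interscapular BAT, inguinal SAT and epididymal VAT were taken, and each depot gave 3 libraries. They are called BAT 12, BAT 15 and BAT 20, SAT 14, SAT 19 and SAT 20, and VAT 14, VAT 17 and VAT 20 after the numbers in their labels, which do not say whether a shared number is a shared mouse. All mice ate the HFD, so the values cannot be set against another diet.

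A miRNA silences messenger RNAs mainly through its seed, bases 2 to 8 of the mature strand, and members with other seeds can bind other targets. Sfmbt2 encodes a Polycomb group protein. In mice it is imprinted, is expressed from the paternal copy in extraembryonic tissue, and is needed for the placenta. The miRNAs that sit in its intron spread by repeated duplication in rodents, and they are best known from placenta, embryonic stem cells and the early embryo.

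Repeats are visible in the mature strands that had a sequence. RefSeq (GRCm38.p6) gave a sequence for 8 of the 80 members. All 8 come from hairpins outside Sfmbt2, and none of the 8 stood above the lowest value in any library. They are shown for the repeats they hold. They do not describe the members in Sfmbt2 or the detected members, for which no sequence was found. Capitals mark the seed. The first 4 contain UGUGUG, a run of alternating U and G.
miR-466j: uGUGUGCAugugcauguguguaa
miR-466k: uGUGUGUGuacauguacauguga
miR-467h: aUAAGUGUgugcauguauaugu
miR-669n: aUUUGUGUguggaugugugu

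The other 4 contain the complementary run, ACACAC.
miR-466i-3p: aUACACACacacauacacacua
miR-466q: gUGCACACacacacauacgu
miR-467f: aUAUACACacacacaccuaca
miR-467g: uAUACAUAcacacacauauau

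Each of these 8 strands has a seed of its own, so that the family number does not group them by seed. In the best ungapped alignment, miR-669n of the miR-669 family matched miR-467h of the miR-467 family at 75% of bases, and miR-467f and miR-467g matched at 81.0%. Among the other miRNAs of the table with a RefSeq sequence, a single one, miR-668-5p, shared a seed with any of the 8 (with miR-467h), and it was at the lowest value in every library. The 8 hairpins are spread over chromosomes 3, 5, 9, 10, 11 and 13. On the plus strand, miR-466k is read from chr3:85467396-85467418, miR-466q from chr3:28419988-28420007, miR-669n from chr3:115979905-115979924, miR-467h from chr9:115381898-115381919, miR-466j from chr10:60960802-60960824 and miR-466i-3p from chr13:17747552-17747573. On the minus strand, miR-467g is read from chr5:34732872-34732892 and miR-467f from chr11:69635419-69635439.

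Most precursors of the 4 families crowd into Sfmbt2. By symbol, RefSeq lists 82 precursors, of which 72 lie inside the gene, on chromosome 2 of GRCm38 from 10370510 to 10595253. They occupy 51.6 kb, from Mir466m at 10466663 to Mir669h at 10518279, all on the strand of the host gene. In GENCODE release M21 none overlaps an exon of an Sfmbt2 transcript, and all 72 lie in a single intron, intron 10 of an Sfmbt2 transcript with 23 exons. The cluster holds 29 precursors of miR-669, 24 of miR-466, 14 of miR-467 and 5 of miR-297. Another 45 miRNA genes in the same stretch carry no miR number in GENCODE, and no miRNA of the table outside the 4 families could be placed there.

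**Figure D1:**
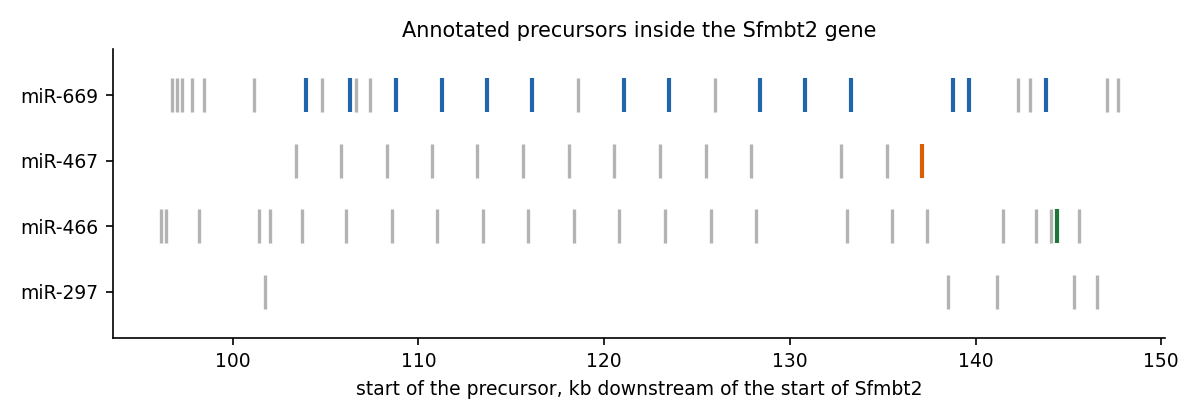
Start of each of the 72 annotated precursors in Sfmbt2, in kb from the start of the gene, with 1 row for each family. Coloured marks are precursors named for the 5 members seen above the lowest value in any library (miR-466h, miR-467d, miR-669a, miR-669c and miR-669o), and grey marks are all others; miR-669a has 12 of the coloured marks. These include Mir669a-3, for which a separate member, miR-669a-3-3p, was at the lowest value in every library.

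The members differed widely in the number of annotated copies. MiR-669a has 12 annotated precursors and miR-467a has 10, and miR-466b has 8. Both arms of miR-467a and of miR-466b were at the lowest value in every library, as was the 5p arm of miR-669a. Of the 64 members whose precursors, matched by name, all lie in Sfmbt2, 5 were above the lowest value in at least 1 library. None was among the 9 members encoded elsewhere, the 5 with precursors in both places, or both arms of miR-466a, for which no precursor with that letter was found. A precursor without a letter, Mir466, lies in Sfmbt2 from 10507918 to 10507990. The match by name gave it to no member, so miR-466a may belong in Sfmbt2 as well.

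The values are log2 values as deposited. They do not hold the total reads of a library, so that the depth of each single library is unknown here, and the lowest value, 3.32 (10 before log2), means only that a miRNA was not told apart from the offset. A miRNA above it is called detected below. The smallest detected value differed between libraries. In BAT it ranged from 4.25 to 4.91, in SAT from 4.13 to 5.20 and in VAT from 3.36 to 3.62, so that a miRNA could be listed at a lower level in VAT than in the other depots. Of the 1171 miRNAs outside the 4 families, 21.7% to 23.2% were detected in BAT, 20.5% to 24.3% in SAT and 27.3% to 29.8% in VAT.

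Skeletal muscle, epithelial and leukocyte markers differed between libraries of a depot, and their part in the values below was not tested. The muscle marker miR-133a-3p was 10.10, 17.20 and 18.67 in the BAT libraries and 9.85, 12.59 and 17.20 in the VAT libraries. Of the 6 muscle markers, 4 were detected in BAT 20 and in VAT 20, 3 in BAT 15, 2 in VAT 17 and 1 in each other library, while miR-499-5p and miR-208b-3p were at the lowest value throughout. All 6 epithelial markers were detected in SAT 14, 5 in VAT 20 and 0 to 2 in the other libraries. The 7 macrophage and leukocyte markers summed to 113116 before log2 in SAT 20, against 13278 in SAT 14 and 15658 in SAT 19. In these libraries miR-150-5p, by far the highest of the 7, was 16.72, 13.56 and 13.84. There miR-142-5p, a marker of blood cells, was 11.88, 7.87 and 7.85. MiR-142-3p and miR-146a-5p were also higher in SAT 20 than in SAT 14 and SAT 19, but miR-223-3p was lower. MiR-155-5p and miR-511-3p were at the lowest value in every SAT library, so the sum does not describe all 7 markers. The 6 markers of brown fat were all detected in every BAT and VAT library, and 5 of them in each SAT library. Their summed level before log2 ran from 177465 to 485408 in BAT, from 37276 to 39377 in SAT and from 52702 to 80090 in VAT. MiR-378a-3p was by far the highest of the 6 in every library, at 18.67, 18.67 and 17.20 in the BAT libraries. The sum therefore mostly describes miR-378a-3p.

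Among the 80 members, 1 was detected in each BAT library, 0 in each SAT library, and 0 in VAT 14, 3 in VAT 17 and 1 in VAT 20. BAT thus averaged 1.0 ± 0.0 members, SAT 0.0 ± 0.0 and VAT 1.33 ± 1.53 (mean and SD, n = 3 libraries each). The BAT member was not the same throughout: it was miR-467d-5p in BAT 12 and BAT 20 and miR-466h-3p in BAT 15. Of the 3 in VAT 17, miR-669a-3p and miR-669o-3p had the same value, and whether they share reads was not tested. The order of VAT and BAT rested on VAT 17, without which VAT averaged 0.5. Above the highest of the libraries' smallest detected values, 5.20, a level chosen after seeing the data, BAT averaged 0.667 and VAT 0. Taken over all libraries, 6.25% of the members were detected at least once, and 34.8% of the 1171 other miRNAs. No member was detected in all 9 libraries, as 184 of the other miRNAs were. Of the 5 members detected, 4 were seen in a single library (80.0%), and of all miRNAs detected, 38 were (9.22%). These shares are descriptions of the table and carry no test, and in whole tissue fewer cells of a type and less RNA per cell cannot be told apart.

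**Figure D2:**
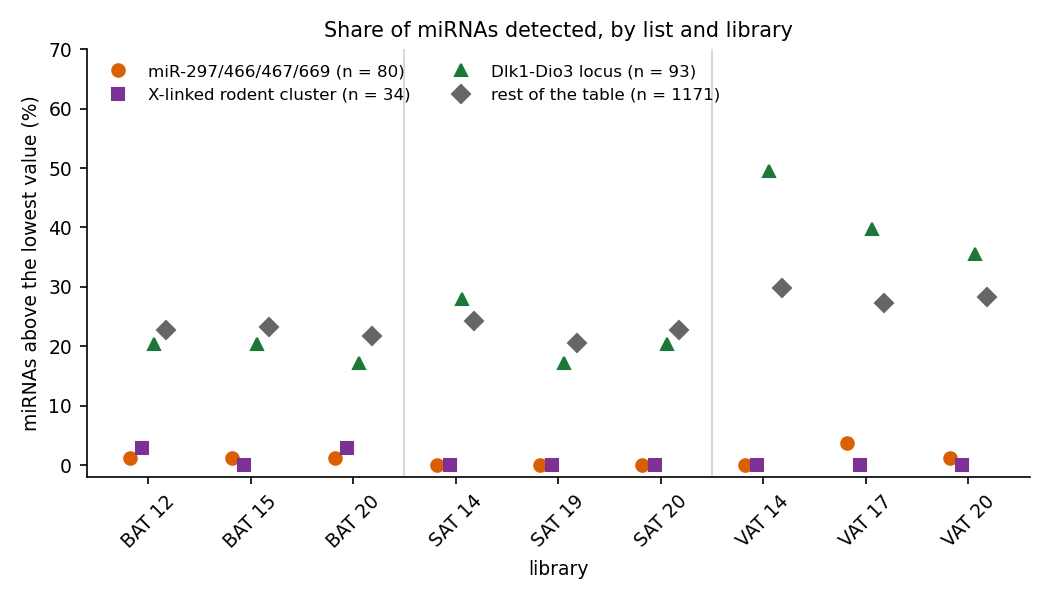
Percent of miRNAs above the lowest value in each library, for the 4 families (circles), the rodent cluster on chromosome X (squares), the Dlk1-Dio3 locus (triangles) and the rest of the table (diamonds), which includes both clusters. The 4 families stay between 0 and 3.75% in every library, and the rest of the table lies between 20.5% and 29.8%.

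A pair of other large miRNA clusters gives a scale for these shares. The cluster on chromosome X that is also expanded in rodents, best known from the testis, had 1 of 34 miRNAs detected (2.94%). This was miR-880-3p, at 4.57 in BAT 12 and 5.94 in BAT 20. The Dlk1-Dio3 locus on chromosome 12, which like Sfmbt2 is imprinted and active in the embryo and placenta, had 47 of 93 detected (50.5%), and its share ranged from 17.2% in BAT 20 and SAT 19 to 49.5% in VAT 14.

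MiR-467d-5p reached the highest level of the 80. Its single annotated precursor, Mir467d, lies in Sfmbt2 on chromosome 2 from 10507630 to 10507714. It stood at 6.08 in BAT 12 and 5.28 in BAT 20 but at the lowest value in BAT 15, at 3.80 in VAT 17, and at the lowest value in VAT 14, VAT 20 and the 3 SAT libraries. A BAT library was therefore the highest and another tied with the lowest, and BAT overlapped with both SAT and VAT. In BAT 12 the level exceeded that of 54 of the 268 detected miRNAs and in BAT 20 that of 16 of 255. In VAT 17 only 2 detected miRNAs lay below it. Its 3p arm was not detected in any library.

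It was the single member above the lowest value in at least 3 libraries, and so the single one tested. BAT had a mean log2 level of 4.89 ± 1.42, against 3.32 ± 0.00 in SAT and 3.48 ± 0.27 in VAT (mean and SD, n = 3 libraries each). The VAT/BAT difference on the log2 scale was -1.41 (standard error 0.70, adjusted p = 0.118 in limma's moderated test over 343 miRNAs). In SAT/BAT it was -1.57 (standard error 0.75, adjusted p = 0.158 in limma), and in VAT/SAT it was 0.16 (standard error 0.16, adjusted p = 0.531 in limma). Thus 0 of 1 tested member passed an adjusted p of 0.05 in each comparison, and 0 had an unadjusted p under 0.05 in limma. Without moderation, 0 were called as well. Over all tested miRNAs, limma called 66.2% in VAT/BAT, 40.5% in SAT/BAT and 16.0% in VAT/SAT. The VAT/SAT count of 55 calls was 0 without SAT 19, 5 without VAT 20, 12 without SAT 20 and 23 without VAT 14.

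Both comparisons with BAT depended on BAT 15, the one BAT library with miR-467d-5p at the lowest value. Without it, the difference was -2.20 in VAT/BAT (adjusted p = 0.00385 in limma) and -2.36 in SAT/BAT (adjusted p = 0.00874 in limma). Without BAT 12, it was -0.82 and -0.98 (adjusted p = 0.286 and 0.327 in limma). The small p-values without BAT 15 cannot decide whether BAT is higher. That fit drops the contrary library and keeps 2 BAT libraries, both detected. All SAT values were tied at the lowest value, with no spread, and so were VAT 14 and VAT 20. The pattern of BAT 12 and BAT 20 with the lowest value in BAT 15 was shared by 12 miRNAs of the table, miR-467d-5p and miR-880-3p among them. Another 26 miRNAs were missing only from BAT 20 within BAT and 10 only from BAT 12.

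**Figure D3:**
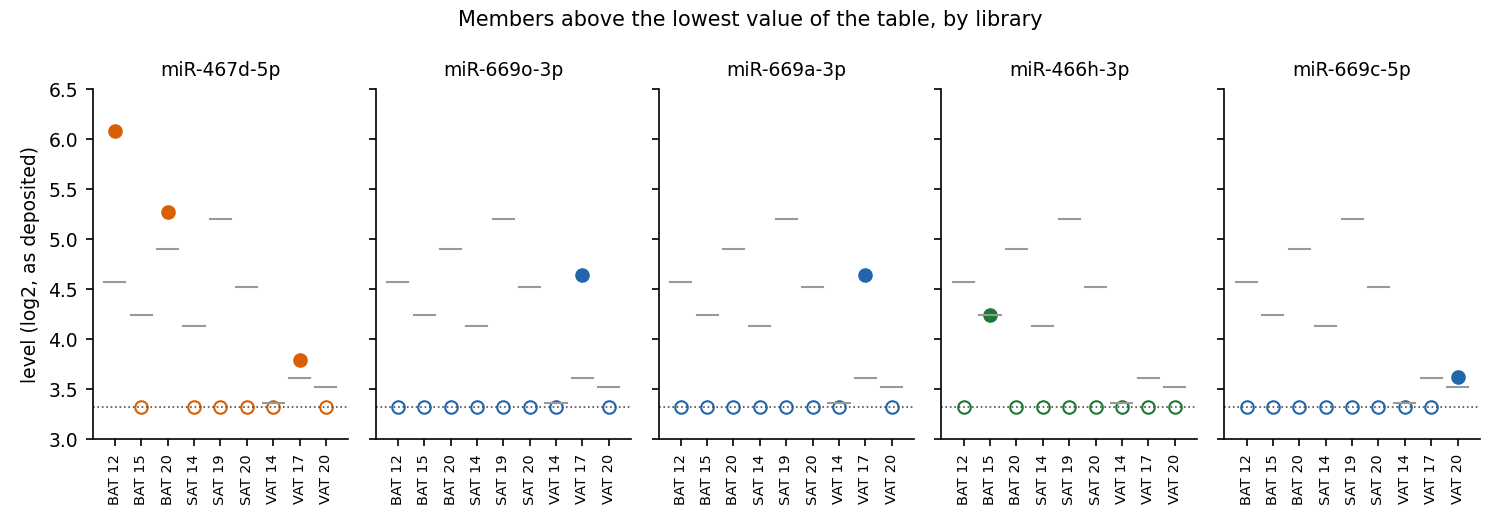
Log2 level of the 5 detected members in each of the 9 libraries; filled points are above the lowest value of the table (dotted line, 3.32), open points are at it, and grey bars show the smallest detected value of each library. MiR-467d-5p is the one member with more than 1 filled point, and no member has one in SAT.

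The miR-669 family gave 3 of the 5 detected members. MiR-669a-3p and miR-669o-3p were both at 4.64 in VAT 17 and at the lowest value in the other 8 libraries. Mir669o lies from 10514300 to 10514395 on chromosome 2, and the 12 precursors named for miR-669a, Mir669a-3 among them, between 10474433 and 10510260. MiR-669a is known as a repressor of the muscle regulator MyoD, but that role is not tied here to the 3p arm, and the 5p arm was not detected. In VAT 17, 7 miRNAs had this value, and these were the 2 of them that no other library detected. Reads with several matches were divided among the places they match. Whether miR-669a-3p and miR-669o-3p share reads was not tested, because neither had a sequence here. Among the detected miRNAs, 45 had the same values as another in all 9 libraries, and 4 of the 45 were members. Shared reads were not tested for these either.

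MiR-669c-5p, from Mir669c at 10509296 to 10509404 on chromosome 2, was detected in VAT 20 alone, at 3.63, a value that 20 miRNAs shared and that 1 of 332 detected miRNAs lay below. This is less than the smallest detected value of every BAT and SAT library, so that its absence there could not be told apart from a level as low. MiR-466h-3p, the one detected member of the miR-466 family, comes from Mir466h at 10514891 to 10514971. It was at 4.25 in BAT 15 alone, the smallest detected value in that library. The 6 members of the miR-297 family were at the lowest value in all 9 libraries. Over the whole table, 5 miRNAs were detected only in BAT 15, 6 only in VAT 17 and 3 only in VAT 20, the 4 members detected in 1 library among them.

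Among all detected miRNAs, the highest level over the 9 libraries had a median of 8.13 (quartiles 5.85 and 10.94). Every detected member lay below that median. MiR-467d-5p, at 6.08, was at the 27.4th percentile, miR-669a-3p and miR-669o-3p at the 14.8th, miR-466h-3p at the 9.47th and miR-669c-5p at the 3.40th. Before log2 and with the lowest value subtracted, the 80 members summed to 57.6 in BAT 12, 8.97 in BAT 15, 28.7 in BAT 20, 33.7 in VAT 17 and 2.34 in VAT 20, in libraries whose miRNAs summed to between 2404213 and 2405514. The largest of these sums was 0.0024% of its library. The library sums were nearly equal and the highest value was the same in all, so this is a share of the normalized scale and not of reads.

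**Figure D4:**
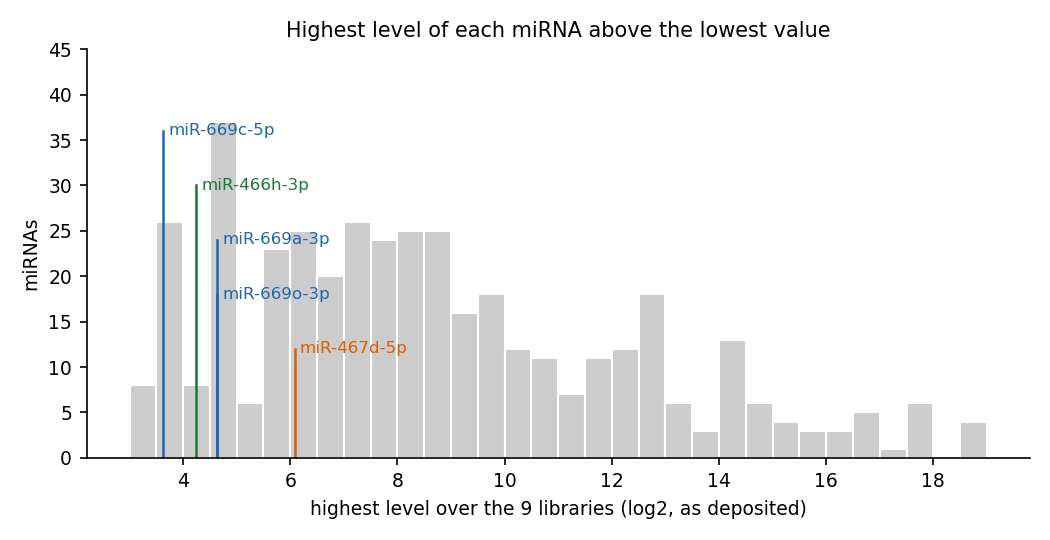
Number of miRNAs by their highest log2 level over the 9 libraries, for the miRNAs above the lowest value of the table (grey bars, 0.5 wide). Coloured lines mark the 5 members, which lie between 3.63 and 6.08.

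Strands with a run of UGUGUG or ACACAC were also found outside the 4 families, both detected and not. Of the 1001 miRNAs of the table with a RefSeq sequence, 31 (3.10%) contain UGUGUG or ACACAC on the mature strand, the 8 members among them. Of the 23 that are no members, 7 were detected (30.4%), against 338 of the 970 miRNAs without either run (34.8%). Some of the 23 hold just the short run, as let-7b-5p does, so that these shares do not describe strands made of long repeats. Among the 23 are miR-574-5p, known to bind the RNA-binding protein CELF1, and miR-1187. They are printed to set beside miR-466j and miR-669n, with capitals for the seed.
miR-574-5p: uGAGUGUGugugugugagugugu
miR-1187: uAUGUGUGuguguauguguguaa

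MiR-574-5p matched miR-669n at 75% of bases, and miR-1187 matched it at 90%. MiR-574-5p was detected in every library, at 7.30 to 7.87 in BAT, 7.87 to 8.39 in SAT and 7.12 to 7.80 in VAT, while miR-1187 was at the lowest value throughout.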

How the data were processed

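Small RNA of 9 libraries, 3 per depot, was analysed. The authors mapped reads to miRBase precursors, kept those on mature miRNAs, divided reads with several matches in proportion, scaled counts to total usable reads and added an offset, stated as 40 counts. They deposited log2 values. The lowest is 10 before log2, so the scale of the offset is not settled, and the highest value, 18.67, is the same in all libraries. Many high values recur across libraries, a pattern that quantile normalization gives, and whether it was applied is not given in the sources used here. The submitters' processing notes name mm10; the version of the small RNA pipeline is not given in the sources used here. Low levels depend on that offset and on how shared reads were divided.

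A miRNA had to exceed the lowest value in 3 or more libraries, which 343 did. These were tested with limma 3.58.1 in R 4.3.3, two-sided, on the 6 libraries of each pair of depots without a block, with Benjamini-Hochberg adjustment. The script was checked on simulated data that had no lowest value and changes only in miRNAs above the median level. That check does not cover a miRNA mostly at the lowest value, as miR-467d-5p was. Detected members are named and the others counted, or named only for their sequence or copies. The study calls the libraries of a depot biological replicates, and the labels do not say which mouse gave which library. Members and lists were chosen with earlier results of these data known. Precursors and sequences come from RefSeq (GRCm38.p6) and GENCODE release M21, matched by name. MiR-574-5p, miR-1187 and miR-880-3p were singled out after their values were seen.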

Additional observations from a re-analysis of the deposited data

How the results depend on the processing

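No member passed an adjusted p of 0.05 with limma under the other settings that kept all libraries. These were a smaller offset (1 in place of the lowest value), a larger one (40 more), testing every miRNA, a common median, scaling to miR-191-5p, a joint fit of the 9 libraries and dropping moderation. With each library left out once, 0 to 1 members were called in VAT/BAT, 0 to 1 in SAT/BAT and 0 in VAT/SAT. The 1 call came without BAT 15, the one BAT library with miR-467d-5p at the lowest value. The stricter filter (at least 6 libraries) left no member to test. For miR-467d-5p the adjusted p with all libraries ranged from 0.0725 to 0.713 in VAT/BAT, from 0.0593 to 0.754 in SAT/BAT and from 0.500 to 1 in VAT/SAT. The difference from BAT was negative in all 14 alternatives of either comparison. That sign could hardly change, because miR-467d-5p was at the lowest value in every SAT library and in VAT 14 and VAT 20. It is therefore no sign of a stable difference.

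The replicate block by library number could be fitted for VAT/SAT alone, where it gave a difference of 0.16 and no call of a member. The block by library order gave -1.41 in VAT/BAT and -1.57 in SAT/BAT, again without a call. Deviations from the depot means of libraries that share a number correlated at -0.14 to 0.27 (4 pairs). So few values cannot decide whether a shared number is a shared mouse, and the main comparisons did not use pairs. Without a filter limma called 128, 74 and 4 miRNAs of 1251 in VAT/BAT, SAT/BAT and VAT/SAT, against 227, 139 and 55 of 343. In VAT/SAT it called 2 relative to miR-191-5p, 30 with all libraries in one fit, 13 without moderation and 0 with the block by order, and 0 to 49 with each library left out once.

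With detection set more than 1 log2 unit above the lowest value, the members detected per library averaged 0.667 both in BAT and in VAT, and 0 in SAT. Above one common level of 5.20, chosen after seeing the data, they were again 0.667 in BAT, and 0 in SAT and VAT. Leaving out each library gave 0.5 to 2 in VAT. Merging members of identical sequence was not run, because the detected members had no sequence among those used here. That the depth of each single library is unknown limits every statement on the 75 members at the lowest value.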
